A study of Mus musculus with 6 samples.

Results

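Macrophage migration inhibitory factor (Mif) and its receptor chain Cd74 were described in single cells of mouse melanoma tumors together with the MHC class II genes. The genes were chosen by name and numbered 8 of the 25215 genes in the table: Mif and its homolog Ddt, the receptor chains Cd74 and Cd44, the class II chains H2-Aa, H2-Ab1 and H2-Eb1, and Ciita. Each was followed for its level, for the share of cells in which it was detected, and for the genes that went with Cd74 within a tumor: class II genes, interferon genes, or the myeloid genes Tyrobp and Lyz2.

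The study compared 3 conditions in C57BL/6 mice, with 2 tumors, each of a different mouse, in each condition. B16 was the melanoma line B16-F10 without treatment, and B16PD1 was the same line in mice dosed with anti-PD1, 200 μg at a time, on day 5 and then days 8 and 11. R499 was a line grown out of a B16 tumor that relapsed after radiation with anti-CTLA4, and its mice were not treated with antibody. In every condition 50000 cells were injected under the skin of the flanks, tumors were taken on day 15, cells without CD45 were sorted from them, and full-length Smart-seq libraries were made on the ICELL8 system. The sort leaves out most immune cells, the line was implanted and not grown from the mouse's own skin, and both flanks carried tumor, so a tumor name can stand for more than 1 mass. Tumors are named here after the headers of the data: B16007 and B16008, B16PD1000 and B16PD1002, R499015 and R499016.

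MIF is a small secreted cytokine that most cells make constitutively, and DDT is its homolog. On the surface of responding cells MIF binds CD74, and CD44 is the chain that passes the signal on. CD74 has an older role as the invariant chain, which occupies the peptide groove of new MHC class II molecules and guides them to the endosome, where cathepsins cut it down and H2-DM exchanges the remnant for antigen peptide. Class II and Cd74 are switched on together by the coactivator CIITA, constitutively in dendritic cells, B cells and macrophages, and after interferon gamma in many other cells, melanoma cells among them.

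The data held 602 cells, of which 507 had more than 1000 genes detected and less than 10% of mitochondrial TPM, with 75 to 91 cells in a tumor. Values were TPM, a transcript abundance that is scaled for length and sums to the same total in every cell, which leaves read depth unknown. Depth was therefore described by genes detected, whose median lay between 3141 and 3838.5 per tumor. All 7 melanocyte markers were present, with a summed TPM between 14048 and 17188 per tumor, the 5 keratinocyte markers were at 0, and the leukocyte gene Ptprc was in 1 cell. Of cell names, 0 were shared between tumors. A gene was called detected in a cell at TPM above 0, and genes detected in more than 5 retained cells were tested, 11264 in all. Of the genes followed here 7 passed and Ciita, in 3 cells, did not.

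Mif was among the most abundant RNAs of these cells. It was detected in 504 of 507 cells and had a mean TPM of 5719, rank 12 of all genes. Its level, the mean over the cells of a tumor of log2(TPM + 1), was 12.42 in B16007 and 11.97 in B16008, 12.35 in B16PD1000 and 12.14 in B16PD1002, and 12.55 in R499015 and 12.20 in R499016. On this scale the 3 conditions overlapped, and the lowest and highest tumor differed by less than the pooled standard deviation of 1.2 among cells of 1 tumor. That deviation was 2.11 in R499016 and 1.52 in B16008, where some cells had no Mif, and 0.62 to 0.73 in the other tumors. By mean TPM both R499 tumors (6658 and 6207) lay above those of B16 (5951 and 4892) and B16PD1 (5704 and 5025). How many of all genes do so on that scale was not counted. Among the cells that had Mif, TPM ran from 454 to 16352. Mif lies on chromosome 10 (75859353 to 75860240, minus strand, GRCm38), and of its 2 annotated pseudogenes in the table, Mif-ps3 was in 4 cells and Mif-ps7 in 0, so little of the signal was assigned to these copies.

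Ddt, whose product is the second ligand of CD74, was far less abundant. Its mean TPM was 151, so that Mif was 37.9 times as high, and it was detected in 257 of 507 cells. The share of cells with Ddt was 55.0% in B16007, 45.3% in B16008, 53.5% in B16PD1000, 48.9% in B16PD1002, 50.6% in R499015 and 50.7% in R499016. Every tumor's share lay inside the 95% Wilson interval of every other, and intervals here cover counting error only. Ddt lies on the same chromosome (75771230 to 75773414, minus strand), and its exons overlap those of Gm20441 on the same strand, so that reads of the pair could have been split between them.

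Cd44, a receptor for hyaluronan as well as the signaling partner of CD74, was found in nearly every cell. It was detected in 496 of 507 cells with a mean TPM of 189. The level was 7.43 in B16007, 6.73 in B16008, 6.85 in B16PD1000, 7.15 in B16PD1002, 7.16 in R499015 and 7.06 in R499016. The spread between the B16 tumors contained all the others. With Mif and Cd44 at hand in nearly every cell, Cd74 was the chain whose detection varied.

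Cd74 was detected in 108 of 507 cells, a share of 21.3% (95% Wilson interval 18.0 to 25.1%). By tumor it was found in 38 of 91 cells of B16007 and 7 of 86 of B16008, in 15 of 86 of B16PD1000 and 20 of 88 of B16PD1002, and in 18 of 81 of R499015 and 10 of 75 of R499016. As shares these were 41.8% and 8.14% for B16, then 17.4% and 22.7% for B16PD1, and 22.2% and 13.3% for R499. The highest and the lowest share were thus both in untreated B16, and the other conditions fell between them. When tumors were ordered by share, each interval overlapped that of its neighbor, while the intervals of B16007 (32.2 to 52.0%) and B16008 (4.0 to 15.9%) did not overlap. In cells with Cd74 the median TPM was 63.1, with quartiles at 28.7 and 145, which is far below the level of Mif in the same cells.

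The mean TPM of Cd74 rested on 1 cell. Over all retained cells it was 64.7 and without that cell 32.4. The cell, in B16007, had a Cd74 TPM of 16368 where no other cell passed 2355. It also held H2-Aa at 7161, H2-Ab1 at 4269 and H2-Eb1 at 1975 TPM, Tyrobp at 6142 and Lyz2 at 7772, C1qb at 5668, and the only Ptprc of the data at 22.1. Of the 17 myeloid markers it had 16, and no other cell had more than 11. It had melanocyte RNA too, with Tyrp1 at 986 and Dct at 1372 TPM, and 5844 genes detected. Doublets were not called here, so whether 1 cell or 2 gave this RNA was not tested. In the tumor means on the log scale the cell counted as 1 of 91. In the comparison of cells with and without Cd74 it counted as 1 of the 38 cells of B16007 with Cd74.

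**Figure D1:**
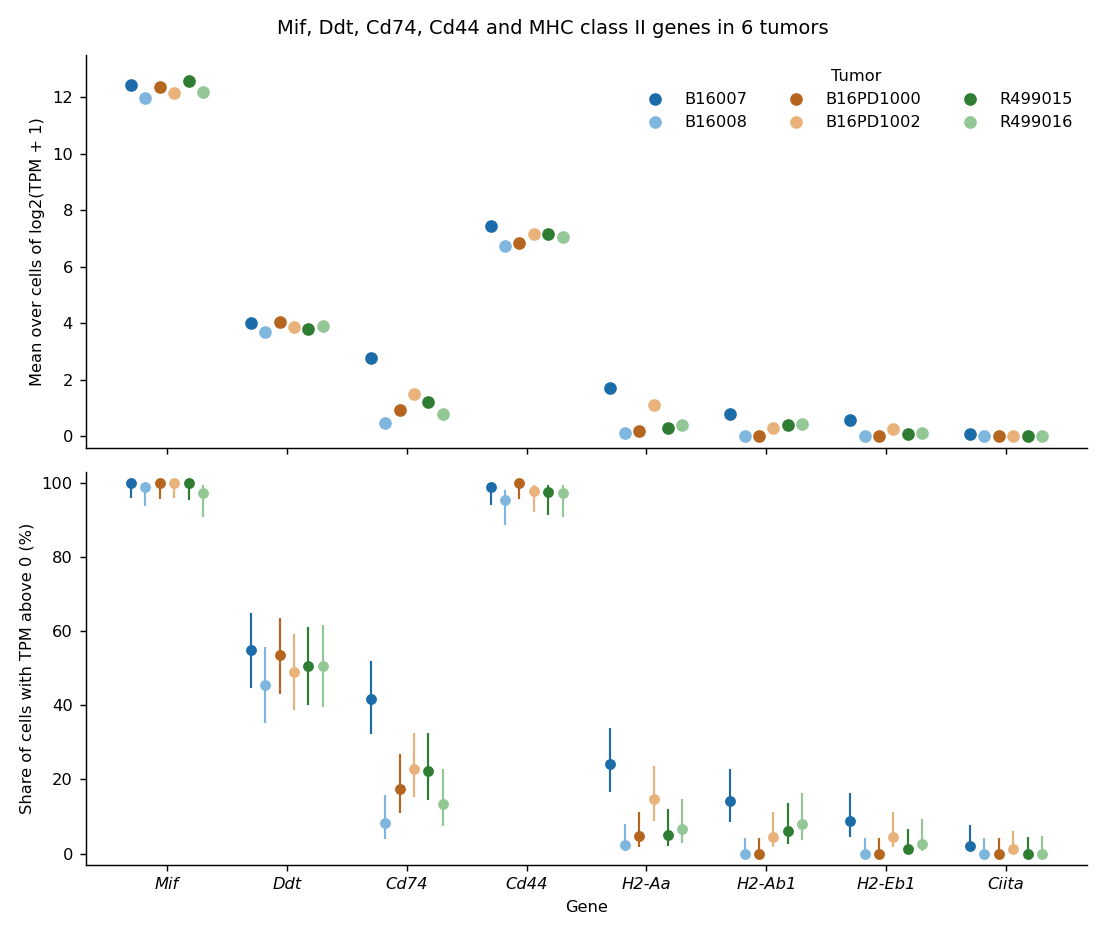
Level (top, mean over retained cells of log2(TPM + 1)) and share of cells with TPM above 0 in percent (bottom, bars are 95% Wilson intervals) of the 8 genes, 1 point per tumor, with colors for B16 (blue), B16PD1 (brown) and R499 (green). By share of cells, Mif and Cd44 sit near the top in every tumor and Ddt near the middle. By level, Mif is highest in every tumor, and Cd44 and then Ddt lie well below it. In both panels Cd74 and the class II chains are highest in B16007 and lowest in B16008, where H2-Ab1 and H2-Eb1 are at 0 as they are in B16PD1000.

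The class II chains were each found in fewer cells than Cd74. H2-Aa, the alpha chain of I-A, was in 50 of 507 cells, H2-Ab1, its beta chain, in 28, and H2-Eb1, the beta chain of I-E, in 15. H2-Aa was detected in 24.2% of cells in B16007 and 2.33% in B16008, in 4.65% in B16PD1000 and 14.8% in B16PD1002, and in 4.94% in R499015 and 6.67% in R499016. As with Cd74, both ends of this range were in untreated B16, and B16PD1002 came next to the top.

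H2-Ab1 was detected in 13 of 91 cells of B16007, in 0 of 86 of B16008 and 0 of 86 of B16PD1000, in 4 of 88 of B16PD1002, in 5 of 81 of R499015 and in 6 of 75 of R499016. H2-Eb1 was found in 8 cells of B16007, 4 of B16PD1002, 2 of R499016 and 1 of R499015, and in no retained cell of B16008 or B16PD1000. With 86 cells, a count of 0 allows up to 3 cells, a share of 3.49%, and the Wilson interval reaches 4.28%. Where the chains were detected their median TPM was 105 for H2-Aa, 52.8 for H2-Ab1 and 86.6 for H2-Eb1, comparable with that of Cd74. The mean TPM of these genes leaned on the same single cell, and fell from 33.5 to 19.4 for H2-Aa, from 12.4 to 3.94 for H2-Ab1 and from 6.31 to 2.42 for H2-Eb1 without it.

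Ciita was detected in 3 cells, 2 of B16007 and 1 of B16PD1002. The first was the myeloid-marked cell described above, with a Ciita TPM of 12.4. The second had 44.3 TPM of Ciita and no Cd74 or class II chain, and the third had 5.94 TPM of Ciita with 612 of Cd74 and 882 of H2-Aa. Ciita was thus seen in 2 of the 73 cells with any of the 3 class II chains. Exons of Ciita (chromosome 16, 10480059 to 10528418, plus strand) overlap those of Dexi on the opposite strand, and whether the counting used strand is not given in the sources used here. A cell with no Ciita detected was therefore not taken as one that lacks it.

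Ordered by mean TPM, the genes ran Mif, Cd44, Ddt, Cd74, H2-Aa, H2-Ab1, H2-Eb1 and Ciita. On the log2(TPM + 1) level per tumor, the ranges of Mif (11.97 to 12.55), Cd44 (6.73 to 7.43) and Ddt (3.69 to 4.06) did not overlap each other, and that of Cd74 (0.47 to 2.76) lay below them. From Cd74 downward each gene's range overlapped that of the next, with H2-Aa between 0.12 and 1.70, H2-Ab1 between 0 and 0.81 and H2-Eb1 between 0 and 0.59.

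CIITA acts through factors bound at a conserved pair of motifs, the X and Y boxes, just upstream of class II genes. Promoters were read from RefSeq on GRCm38.p6, in which 5 of the genes had an entry used here, and the 120 bases before the start of H2-Aa (chr17:34287824-34287943, minus strand) and of H2-Eb1 (chr17:34305747-34305866, plus strand) are shown because they hold both motifs. Capitals mark CTNGCAAC, from the X box, and CTGATTGG, from the Y box. The letters were settled after these promoters had been read.
H2-Aa: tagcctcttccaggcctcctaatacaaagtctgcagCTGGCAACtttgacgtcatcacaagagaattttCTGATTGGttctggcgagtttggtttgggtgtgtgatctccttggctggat
H2-Eb1: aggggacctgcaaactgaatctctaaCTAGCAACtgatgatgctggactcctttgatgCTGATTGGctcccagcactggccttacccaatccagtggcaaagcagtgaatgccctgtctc
In H2-Aa the X letters began 84 bases before the start and the Y letters 51 bases, and in H2-Eb1 they began at 94 and 62 bases. Among 32851 promoters of the same 300 bases, searched on both strands, 3.42% held the X letters, 4.1% the Y letters and 0.18%, or 59, held both. Neither was found in the promoter of Mif, Ddt or Cd44. The matches describe these windows and were not tied to any measurement in the cells.

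The first question was whether these genes differed between the conditions, which the study had set up to contrast untreated tumors with anti-PD1 and with a resistant line. None passed the adjusted test. Tumor means of log2(TPM + 1) were compared with limma over the 11264 genes, and after Benjamini-Hochberg adjustment 0 of the 7 genes tested passed 0.05 in either comparison, while 0.0621% of all genes passed in R499 minus B16 and 0% in B16PD1 minus B16. At an unadjusted p under 0.05 it was again 0 of 7 in both, against 10.5% and 4.69% of all genes. In 0 of 7 did the tumors of R499 and B16 fail to overlap, which was so for 41.7% of all genes, and for B16PD1 and B16 the numbers were 0 of 7 and 33.3%.

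The Cd74 level was 2.76 in B16007 and 0.47 in B16008, against 0.94 and 1.5 with anti-PD1 and 1.21 and 0.79 in R499. Every other tumor thus fell between the B16 pair. R499 minus B16 was -0.62 (SE 0.49, limma adjusted p = 0.686) and B16PD1 minus B16 was -0.40 (SE 0.49, adjusted p = 0.990). Both differences turned on B16007, since without it they were 0.53 (adjusted p = 0.654) and 0.75 (adjusted p = 0.842). R499 minus B16 also became positive, at 0.81 (adjusted p = 0.821), when genes detected per cell entered the fit as a covariate.

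H2-Aa followed the same layout, with levels of 1.7 in B16007, 0.12 in B16008, 0.20 in B16PD1000, 1.1 in B16PD1002, 0.31 in R499015 and 0.40 in R499016. The R499 pair was the closest together and lay within the B16 pair. R499 minus B16 was -0.56 (SE 0.36, adjusted p = 0.602, the lowest of the 7 genes) and turned to 0.23 without B16007. For H2-Ab1, with levels of 0.81 and 0 in B16 and 0.41 and 0.45 in R499, the difference was 0.02 (SE 0.18, adjusted p = 0.976). The R499 tumors sat midway between the B16 tumors. H2-Eb1 differed by -0.19 (SE 0.14, adjusted p = 0.651).

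For Mif, Ddt and Cd44 the tumors of the 3 conditions overlapped on the log2(TPM + 1) level. Mif in R499 minus B16 differed by 0.17 (SE 0.19, adjusted p = 0.775) and in B16PD1 minus B16 by 0.05 (SE 0.19, adjusted p = 0.994). With log2 of the mean TPM, Mif in R499 minus B16 was at 0.25 (limma adjusted p = 0.677). Ddt differed by 0.01 (SE 0.33) and 0.11 (SE 0.33), and Cd44 by 0.04 (SE 0.32) and -0.08 (SE 0.32), with adjusted p between 0.980 and 0.996. Both comparisons shared the B16 tumors, so their values are not independent. With 2 tumors against 2 an exact permutation test cannot go below p = 0.333, and a difference of the size of these standard errors was not detectable here.

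The tumors did not order by condition but had an order that several gene groups shared. The mean of the 40 interferon genes tested was 2.39 in B16007, 2.0 in B16PD1002, 1.95 in R499015, 1.48 in R499016, 1.44 in B16PD1000 and 1.07 in B16008. That of the 12 MHC class I genes was 5.21 in B16007, 4.63 in R499015, 4.53 in B16PD1002, 4.37 in R499016, 4.19 in B16PD1000 and 3.99 in B16008. Cd74 fell in nearly the same order, with B16007 highest and B16008 lowest in all 3. The summed TPM of the 17 myeloid markers moved with it in part, at 445 in B16007 (68.6 without the single cell described above) and 26.8 in B16008, 49.0 and 325 in B16PD1, and 25 and 64.6 in R499, and its part in the Cd74 level was not tested. To the 325, in B16PD1002, Lyz2 gave 114 and Tyrobp 76.9, found in 6 and 3 of 88 cells.

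Of the 19 further genes of class II presentation listed, 15 were tested and 4 (H2-Eb2, H2-DMb2, H2-Oa and H2-Ob) were at 0 in every retained cell. In R499 minus B16, 0 passed the adjusted test, 1 was higher and 1 lower at unadjusted p under 0.05 (2.42% and 8.12% of all genes), and the median difference was -0.16, against -0.07 over all genes. Ctsl, an endosomal cathepsin, had levels of 5.13 in B16007, 4.85 in B16008, 4.91 in B16PD1000, 5.63 in B16PD1002, 6.25 in R499015 and 5.84 in R499016. Both R499 tumors lay above all the others, with a difference from B16 of 1.06 (SE 0.35, adjusted p = 0.349). In B16PD1 minus B16, 0 passed adjusted, 1 was higher and 1 lower unadjusted (3.02% and 1.67% of all genes), and the median was 0.03. Of the MIF receptors and partners 9 of 11 were tested, with 0 past adjustment in either comparison.

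The second question was what went with Cd74 inside a tumor, which does not depend on how tumors differ. For each gene and tumor the mean log2(TPM + 1) of the cells with Cd74 was taken minus that of the other cells, and the 6 differences were tested against 0 with limma, over 11263 genes without Cd74 itself. Of these 0% passed adjustment. At unadjusted p under 0.05, 13.2% of genes were higher in cells with Cd74 and 0.275% were lower, and 6.42% were higher in every tumor. Cells with Cd74 had more genes detected by their median in 5 of 6 tumors, for example 4039.5 against 3495 in B16007 and 5126 against 3529 in B16PD1000, the exception being R499016 with 3168 against 3797. When genes detected per cell were regressed out within each tumor, 2.76% of genes were higher and 2.37% lower, and the median over all genes moved from 0.16 to -0.01. A positive difference by itself was common, with 77.4% of all genes before and 47.4% after regression. For named genes both values are given where they differ by more than 1.5 times.

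Class II chains were detected more often in cells with Cd74, in 4 tumors. Any of the 3 chains was found in 35 of 108 cells with Cd74 (32.4%, 24.3 to 41.7%) and in 38 of 399 without (9.52%, 7.02 to 12.8%). By tumor it was 19 of 38 cells with Cd74 against 11 of 53 without in B16007, 9 of 20 against 7 of 68 in B16PD1002, 4 of 10 against 8 of 65 in R499016 and 3 of 18 against 6 of 63 in R499015. In B16008 and B16PD1000 the 7 and the 15 cells with Cd74 had none, and the other cells had 2 of 79 and 4 of 71.

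**Figure D2:**
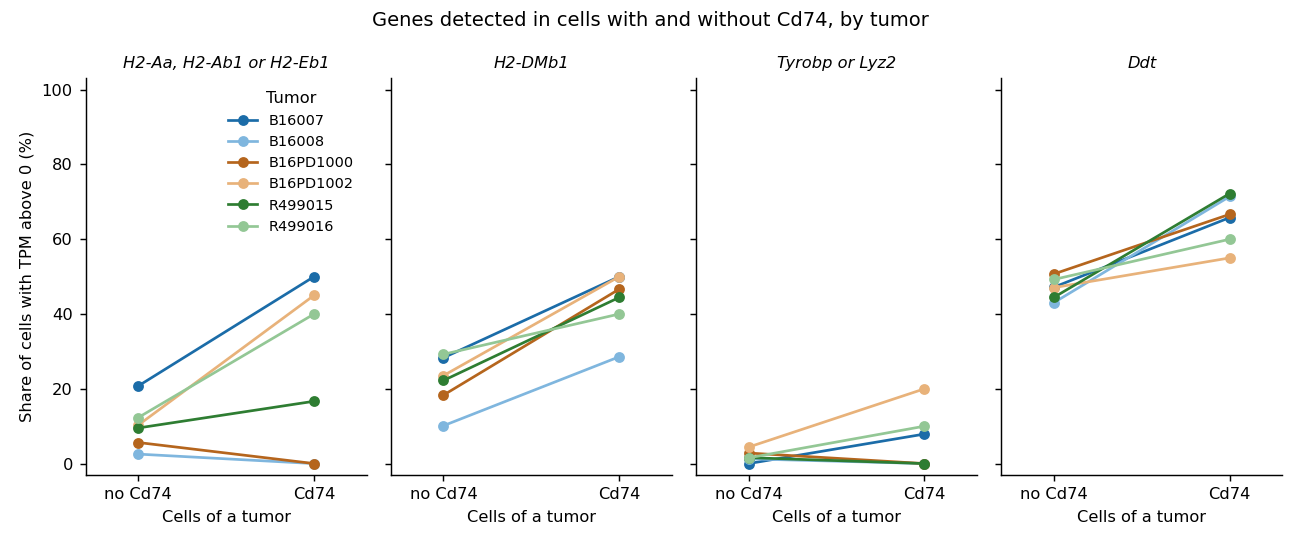
Share of cells in percent with any class II chain, with H2-DMb1, with Tyrobp or Lyz2, and with Ddt, in cells without and with Cd74 detected, joined by a line for each of the 6 tumors. The lines for H2-DMb1 and Ddt rise in 6 of 6 tumors, those for the class II chains in 4 and those for Tyrobp or Lyz2 in 3.

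Of the 3 chains, H2-Ab1 was lower with Cd74 in no tumor. It was found in 17 of 108 cells with Cd74 (15.7%) and 11 of 399 others (2.76%), and was higher with Cd74 in the 4 tumors that had it. The differences on the log2(TPM + 1) scale were 1.13 in B16007, 0.84 in B16PD1002, 0.82 in R499015 and 0.73 in R499016, and 0 in B16008 and B16PD1000, where no cell had the gene. Their mean was 0.59 (SE 0.15, unadjusted p = 0.00142, limma adjusted p = 0.184). It remained at 0.58 with genes detected regressed out and at 0.47 without the cells that had Tyrobp or Lyz2.

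H2-Aa differed among the tumors in direction. The difference was 1.51 in B16007, 3.03 in B16PD1002 and 0.92 in R499016, and -0.14 in B16008, -0.24 in B16PD1000 and -0.40 in R499015. In the last 3 tumors none of the cells with Cd74 had H2-Aa. The mean was 0.78 (SE 0.35, adjusted p = 0.353), and it was 0.33 without B16PD1002. H2-Eb1 averaged 0.25 (SE 0.14, adjusted p = 0.438) and fell to 0.06 without B16007, so that it rested on that tumor.

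Seen from the class II side, Cd74 was in 23 of 50 cells with H2-Aa, 17 of 28 with H2-Ab1 and 10 of 15 with H2-Eb1. Most of the 73 class II cells had 1 chain detected, namely 57, of which 24 had Cd74. Of the 12 cells with 2 chains 7 had Cd74, and of the 4 cells with all 3 chains 4 had it. Conversely 73 of the 108 cells with Cd74 had no class II chain. RNA that is present but not captured lowers such overlaps, and its part here was not tested.

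**Figure D3:**
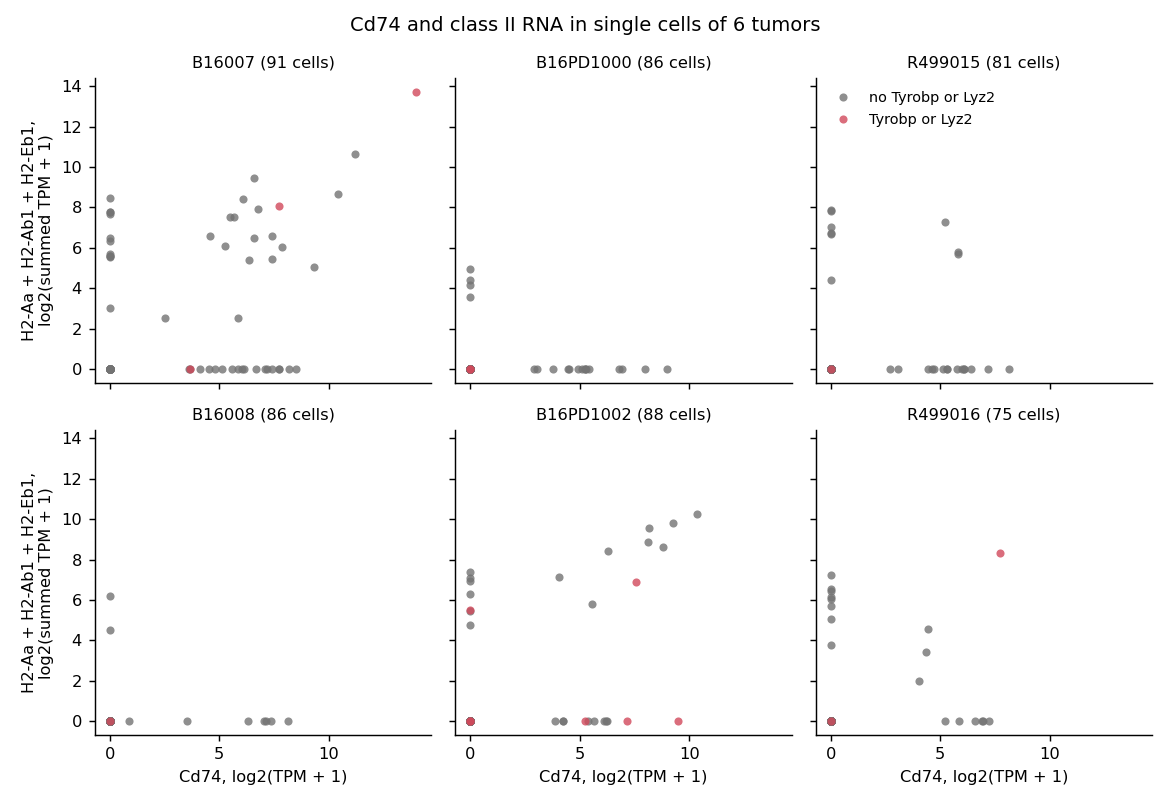
Each point is 1 retained cell of the tumor named above the panel, with Cd74 in log2(TPM + 1) on the horizontal axis, the summed TPM of H2-Aa, H2-Ab1 and H2-Eb1 in log2(sum + 1) on the vertical axis, and cells with Tyrobp or Lyz2 in red. Cells with both Cd74 and class II lie off the axes in B16007, B16PD1002, R499015 and R499016, 31 of these 35 cells are gray, and the cell at the far upper right of B16007 is the one with 16368 TPM of Cd74.

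Tyrobp and Lyz2, a signaling adaptor and a lysozyme of myeloid cells, marked few of these cells. Tyrobp was in 6 and Lyz2 in 14 of 507 cells, and either was in 8 of 108 cells with Cd74 (7.41%, 3.80 to 13.9%) and 8 of 399 without (2.01%, 1.02 to 3.91%). By tumor it was 3 of 38 against 0 of 53 in B16007, 4 of 20 against 3 of 68 in B16PD1002 and 1 of 10 against 1 of 65 in R499016. In the other 3 tumors the cells with Cd74 had neither gene. The mean difference was 0.19 for Tyrobp (SE 0.10, adjusted p = 0.417) and 0.33 for Lyz2 (SE 0.16, adjusted p = 0.379).

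Thus 100 of the 108 cells with Cd74 had no Tyrobp or Lyz2 detected, and among these 31 had a class II chain (31.0%, 22.8 to 40.6%), against 37 of the 391 others (9.46%, 6.94 to 12.8%). The pooled shares were nearly those of all cells. Within tumors, the counts were 17 of 35 with Cd74 against 11 of 53 without in B16007, and 8 of 16 against 6 of 65 in B16PD1002. They were 3 of 9 against 8 of 64 in R499016 and 3 of 18 against 6 of 62 in R499015. In B16008 and B16PD1000 they were 0 of 7 against 2 of 78 and 0 of 15 against 4 of 69. Of the 17 myeloid markers listed all were detected somewhere and 9 were tested. All 9 had a positive difference (77.4% of all genes), and 0 passed the adjusted test. At unadjusted p under 0.05, 3 were higher in cells with Cd74 (background 13.2%), and the median was 0.22. With genes detected regressed out 8 were positive (47.4% of all genes) and 2 passed unadjusted (2.76%), with a median of 0.16. Their summed TPM was 611 in cells with Cd74, 296 without the single cell described above, and 41.8 in the other cells. The 296 also rested on few cells. Among those 107 cells Lyz2 added up to 10136 TPM, of which 1 cell held 9867, and Tyrobp to 6887, of which 1 cell held 6609. There were 6 cells with at least 3 of these markers and all 6 had Cd74. Of the 108 cells with Cd74, 65 had none of the 17 markers, and 86 had none other than Cd68. The same counts were not made for the cells without Cd74. Cd68, which is lysosomal and not restricted to myeloid cells, was in 27 of 108 cells with Cd74 and 64 of the 399 others.

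Markers of other immune cells were few. Of 9 dendritic markers 7 were at 0, including Itgax, Flt3 and Clec9a, and of 6 B cell markers 4 were, including Ms4a1. Their summed TPM was lower in cells with Cd74 (0.51 and 1.66) than in the others (3.02 and 2.78). Of 10 T and NK cell markers 7 were at 0 and 1 was tested, Lck, a T cell kinase, which differed by 0.67 (SE 0.24, limma adjusted p = 0.269) and by 0.60 regressed out. The summed TPM of that list was higher in cells with Cd74, at 11.3 against 5.90, and its part in the other differences was not tested. All 7 melanocyte markers were tested and 0 differed at unadjusted p under 0.05, with a median difference of -0.03 in which Tyrp1 was at -0.03 and Dct at -0.014 (-0.076 regressed out), both of which changed sign under some of the alternatives. Their summed TPM was 15912 in cells with Cd74 and 15935 in the others.

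Of the 43 interferon genes listed 40 were tested, and all 40 had a positive difference, that is, a higher mean in cells with Cd74, as did 77.4% of all genes. None passed the adjusted test, and 25 were higher at unadjusted p under 0.05 where the background was 13.2%, and the median was 0.57 against 0.16 over all genes. With genes detected regressed out 38 were positive (47.4% of all genes) and 12 passed unadjusted, where the background was 2.76%, and the median was 0.43. Leaving out cells with Tyrobp or Lyz2 as well, an alternative chosen after the data had been seen, left 12 past and a median of 0.45. The list's mean was higher in cells with Cd74 in 6 of 6 tumors, at 2.99 against 1.97 in B16007, 1.45 against 1.03 in B16008, 2.0 against 1.32 in B16PD1000, 2.97 against 1.72 in B16PD1002, 2.06 against 1.91 in R499015 and 1.78 against 1.44 in R499016. The difference was smallest in R499015.

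Among the interferon genes, Cxcl10, the chemokine that draws CXCR3-positive T cells, differed by 1.78 (SE 0.33, adjusted p = 0.172) and in 6 of 6 tumors, from 1.18 in B16008 to 3.09 in B16PD1002, and by 1.60 with genes detected regressed out. Ifitm3, an antiviral membrane protein, differed by 1.65 (SE 0.29, adjusted p = 0.155), likewise in 6 of 6, and by 1.08 regressed out. Ifi27 and Bst2 differed by 0.79 and 0.89, in 5 and 4 of 6 tumors, and by only 0.33 and 0.34 regressed out. Genes of the interferon gamma response named after their values had been seen were Psmb8, a subunit of the immunoproteasome, at 1.41 and the GTPase gene Igtp at 1.29. Irf1, a transcription factor induced by interferon, differed by 0.29 (SE 0.42), in 4 of 6 tumors, was at 0.036 regressed out, and fell to -0.01 without B16PD1002.

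MHC class I genes likewise had higher means in cells with Cd74. All 12 tested were positive (77.4% of all genes), 0 passed the adjusted test and 7 were higher at unadjusted p under 0.05 (13.2% of all genes), with a median of 0.47. With genes detected regressed out 9 were positive (47.4% of all genes) and 5 passed unadjusted (2.76%), with a median of 0.30. B2m, the light chain of class I, differed by 0.70 (SE 0.13, adjusted p = 0.172) and was higher in 6 of 6 tumors, from 0.47 in B16007 to 0.98 in B16PD1002. The heavy chain genes H2-K1 and H2-D1, named after their values had been seen, differed by 1.87 and 1.12, again in 6 of 6. With genes detected regressed out B2m was at 0.46, H2-K1 at 1.41 and H2-D1 at 0.68. The chaperones Calr and Canx differed by 0.51 and 0.27, which became 0.31 and -0.0059 regressed out.

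Of the class II partners 13 of 15 were positive, near the 77.4% of all genes, and 5 were higher at unadjusted p under 0.05 (13.2% of all genes), with a median of 0.39. With genes detected regressed out 2 were higher (2.76% of all genes) and 1 lower (2.37%), and the median was 0.10. H2-DMb1 and H2-DMa, the chains of the peptide exchanger, are named after their values had been seen. H2-DMb1 was in 50 of 108 cells with Cd74 (46.3%) and 85 of 399 others (21.3%), differed by 1.33 (SE 0.29, adjusted p = 0.184) in 6 of 6 tumors, and by 1.13 regressed out. H2-DMa was in 16 and 12 cells and differed by 0.60. The 3 most abundant of the list, Ctsl, Lgmn and Nfyc, differed by 0.92, 0.52 and 0.14, and with genes detected regressed out by 0.19, 0.10 and -0.39.

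**Figure D4:**
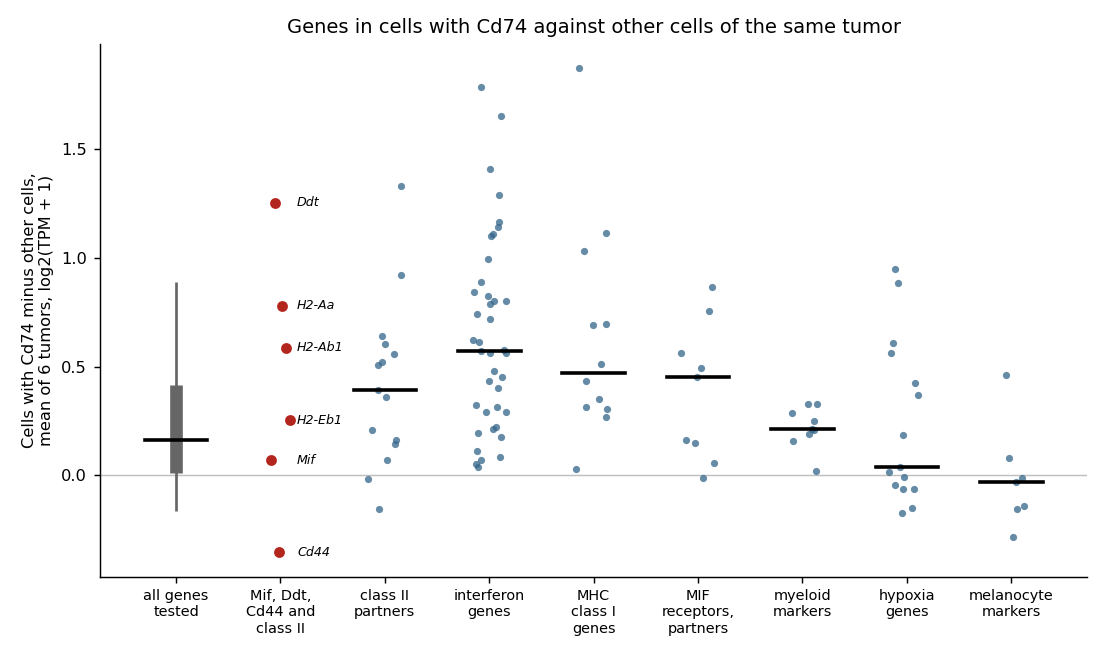
Difference between cells with Cd74 and the other cells of a tumor on the log2(TPM + 1) scale, as the mean of 6 tumors, for genes (points) of each list with the list's median (black line), and for all genes tested the median, the 25th to 75th (thick bar) and 5th to 95th percentiles (thin bar). Of the 7 lists drawn, that of interferon genes has the highest median at 0.57, against 0.16 over all genes. The MHC class I genes follow at 0.47, close to the MIF receptors and partners at 0.45 and the class II partners at 0.39. The melanocyte markers lie around 0.

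Of the ligands, Mif had a difference near 0. Its mean was 0.07 (SE 0.10, adjusted p = 0.772), and it was higher with Cd74 in 3 of 6 tumors. Regressing out genes detected brought it to -0.03. Ddt differed by 1.25 (SE 0.32, adjusted p = 0.185) and was higher in 6 of 6 tumors, with 70 of 108 cells with Cd74 (64.8%) against 187 of 399 others (46.9%). This difference moved with the number of genes detected, and fell to 0.42 (SE 0.33, adjusted p = 0.917) once that was regressed out. Cd44 was lower with Cd74 in 5 of 6 tumors, by a mean of -0.35 (SE 0.24, adjusted p = 0.537), and by -0.485 regressed out.

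The genes of smallest p overall were Fmc1 (difference 2.09, SE 0.30, adjusted p = 0.0619), Ndufs6 (1.45), Ifitm3, Snrpe (1.57) and Cxcl10. Fmc1 and Ndufs6 belong to the mitochondrial ATP synthase assembly and complex I, and Snrpe to the spliceosome. Chosen for their p, all 5 were higher in 6 of 6 tumors. With genes detected regressed out Ndufs6 and Snrpe fell to 0.71 and 0.80, whereas Fmc1 stood at 1.39. MIF receptors and partners had 8 of 9 positive and 1 at unadjusted p under 0.05, near the shares of all genes (77.4% and 13.2%). That gene was the kinase gene Mapk3 at 0.87, with Cops5 at 0.76 and Trp53 at 0.49. The list's median was 0.45, against 0.16 over all genes. With genes detected regressed out 0 passed, the median was 0.098, and the 3 genes were at 0.36, 0.25 and 0.098. Hypoxia genes, to which Mif is often counted, had a median of 0.04 (-0.09 regressed out), with Aldoa at -0.06, Ldha at -0.17 and Eno1 at -0.15.

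A last description used no split of cells. For each of 9476 genes in at least 5% of cells, Pearson's r with Cd74 was computed across the cells of a tumor and averaged over the 6 tumors and 507 cells. These genes were detected in every tumor, and another 39 that reached the 5% were at 0 in all cells of at least 1 tumor and had no r there. The points of a tumor share its library and differ in depth, and r with the number of genes detected was itself 0.135. Among the 9476, the 5 genes most like Cd74 were H2-K1 (r = 0.216), Psmb8 (0.215), B2m (0.200), Cramp1l (0.199) and H2-DMb1 (0.198), against a median of 0.03 over all genes. Of the 39 others, 3 lay above the lowest of these 5 and are named after their values had been seen. H2-Ab1 stood at 0.294 over the 4 tumors that had it, H2-DMa at 0.237 and Il18bp at 0.202 over 5 tumors each, the first 2 of these above H2-K1. With the missing tumors set to 0, H2-Ab1 came to 0.196 and H2-DMa to 0.198, next to H2-DMb1, while Il18bp fell to 0.168. With genes detected regressed out, the 5 highest of the 9476 were Psmb8 (0.199), Trim34a (0.186), Cramp1l (0.185), H2-K1 (0.184) and Irf7 (0.178). All of these are weak in sparse data. H2-Aa was at 0.158 (rank 50 of the 9476) and Mif at -0.015 (rank 7842). Cd44, at -0.08, ranked 9414, and the hypoxia gene Ldha, at -0.128, ranked 9473, so both were near the bottom.

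For Mif the 5 were Tpi1 (r = 0.417), Aldoa (0.396), Mt1 (0.323), Anxa2 (0.322) and Rpl10a (0.306). Tpi1 and Aldoa are glycolytic enzymes, and Pgk1 and Ldha stood at 0.223 and 0.218. The order of Tpi1, Aldoa, Mt1 and Anxa2 was the same with genes detected regressed out, at 0.395, 0.389, 0.3 and 0.277. Cd74 with Mif was at -0.015, and Ddt with Mif at 0.09.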

How the data were processed

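Cells came from 6 tumors, 2 in each condition. The authors aligned reads with STAR in 2-pass mode, quantified them with RSEM and deposited TPM per gene and cell, on mm10 per the labels, with versions not given in the sources used here. TPM holds no read counts, so depth is unknown and the study's read minimum was not applied. Doublets were not called. Column names gave each tumor's condition but not which labelled replicate it was.

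Cells with more than 1000 genes and under 10% mitochondrial TPM, and genes in more than 5 of these cells, were kept. Tumor means of log2(TPM + 1), or within-tumor differences between cells with and without Cd74, were fitted with limma 3.58.1 in R 4.3.3 (eBayes with a trend, two-sided, Benjamini-Hochberg, threshold 0.05), all tumors sharing 1 variance per gene. Cd74 chose the cells and was not tested there. Intervals are 95% Wilson. Python 3.11.15 with pandas 2.3.3, numpy 2.4.6 and scipy 1.17.1 was used for the rest, and steps were tested on simulated data. Positions came from GENCODE on GRCm38.

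The genes, lists and tests were chosen with earlier results of these data known. Named are the 8 genes, Tyrobp and Lyz2, the 3 most abundant genes of each list, the 5 genes of smallest p, and the 5 most like Cd74 or Mif. Genes named after their values had been seen, or for the cell richest in Cd74, are marked where they appear or are listed with it. Alternatives were pseudocounts of 0.1 and 10, log2 of mean TPM, other filters on genes and cells, leaving out cells with Tyrobp or Lyz2, genes detected as a covariate or regressed out, a Cd74 minimum of 10 TPM, limma without a trend, and leaving out each tumor.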

Additional observations from a re-analysis of the deposited data

Results flagged for a closer look

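Several of the genes had 1 tumor apart from the other 5 in the difference between cells with and without Cd74, by a gap test at the 95% level, which chance alone passes in about 1 of 20 groups of values (31 genes were looked at). For Mif the difference was 0.40 in R499016, where the other tumors ran from -0.07 to 0.10. In R499016 Mif was in 10 of 10 cells with Cd74 and in 63 of 65 others. A cell at 0 pulls a mean of log2(TPM + 1) down strongly for a gene this abundant, and the part of such cells in the 0.40 was not tested. For H2-Eb1 it was 1.2 in B16007, and the other 5 tumors lay between -0.11 and 0.34. For Nfyc, which encodes a subunit of the factor that binds the Y box, it was -0.98 in B16008, the only negative tumor.

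The Mif difference was below 0 in both B16 tumors (-0.02 and -0.06) and above 0 in both R499 tumors (0.08 and 0.40). The B16 mean was -0.28 relative to that of R499, which rested mostly on the 0.40 of R499016 described above. This contrast was not tested, and the share of all genes that split this way was not counted. Among the 95 cells left out by the filter, Ddt was detected in at least 55.0% of cells in both R499 tumors, a higher share than in either B16 tumor, which was so for 30.8% of all genes tested. Cd44 was in at least 83.3% in both B16PD1 tumors, again higher than in either B16 tumor, as were 19.3% of all genes. H2-Ab1 was in at least 4% in both R499 tumors, 1 cell in each, in 0 cells of B16, and in 0 and 2 cells (16.7%) of the B16PD1 tumors. These shares rest on 10 to 25 cells per tumor.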

How the results depend on the processing

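Genes past the threshold in R499 minus B16 numbered 7, and 11 or 3 with a pseudocount of 0.1 or 10, 22 in all deposited cells, 20 in cells with more than 2000 genes, 13 among genes in more than 10 cells, and 0 with genes detected as a covariate, without a trend, with log2 of the mean TPM, or with no filter on genes. Leaving out a tumor gave 0 to 10 (0 without B16008, 4 without R499015). In B16PD1 minus B16 the count was 0, with 0 to 2 on leaving out a tumor (2 without B16007). Between cells with and without Cd74 it was 0, and 1 with a pseudocount of 0.1 (Fmc1), 3 with more than 2000 genes (Fmc1, Ndufs6 and Snrpe), and 0 to 1 on leaving out a tumor (1 without R499015). None of the 7 genes followed here passed in any alternative run. No paired analysis was possible because the column names carry no replicate number that ties tumors of different conditions together.

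Signs changed as follows, the cause not being tested, and each of these values missed the threshold. In R499 minus B16, leaving out a tumor gave -1.76 to 0.53 for Cd74, -1.35 to 0.23 for H2-Aa, -0.38 to 0.43 for H2-Ab1, -0.49 to 0.10 for H2-Eb1, -0.32 to 0.39 for Cd44, -0.15 to 0.17 for Ddt and -0.050 to 0.40 for Mif. In B16PD1 minus B16 it gave -1.54 to 0.75 for Cd74, -1.05 to 0.53 for H2-Aa, -0.67 to 0.14 for H2-Ab1, -0.46 to 0.13 for H2-Eb1, -0.43 to 0.27 for Cd44, -0.054 to 0.27 for Ddt and -0.18 to 0.27 for Mif. With genes detected as a covariate, R499 minus B16 was 0.81 for Cd74, 0.49 for H2-Aa and 0.20 for H2-Eb1, and B16PD1 minus B16 was -0.066 for Ddt and -0.087 for Mif. With log2 of the mean TPM, R499 minus B16 was -0.062 for Cd44 and -0.038 for Ddt, and B16PD1 minus B16 was -0.058 for Ddt and -0.011 for Mif. R499 minus B16 was -0.12 for Cd44 in all cells, -0.049 for Ddt and -0.0020 for H2-Ab1 under 5% mitochondrial TPM, -0.014 for Cd44 and -0.026 for H2-Ab1 with more than 2000 genes (where Mif in B16PD1 minus B16 was -0.080), and -0.0035 for Ddt with a pseudocount of 10.

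In cells with Cd74 minus the others, regressing out genes detected gave -0.026 for Mif, -0.39 for Nfyc, -0.0059 for Canx and -0.0037 for Mlana. With cells that had Tyrobp or Lyz2 left out as well, an alternative added after seeing the data, the values were -0.017 for Mif, -0.39 for Nfyc, -0.016 for Lgmn and -0.0046 for Mlana. Canx was -0.10 with more than 2000 genes. Dct and Tyrp1 were 0.048 and 0.0058 in all cells and 0.018 and 0.037 under 5% mitochondrial TPM, where Mlana was -0.052 and Nfyc -0.0088. Leaving out a tumor gave -0.074 to 0.013 for Dct, -0.14 to 0.051 for Tyrp1 and -0.0085 to 0.65 for Irf1. Depth in reads is unknown, so no limit of detection in reads can be given.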
